A study of Drosophila busckii and Drosophila melanogaster and Drosophila virilis with 5 samples.

Results

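The genes described here are 99 of the longest protein-coding genes on the large chromosome arms of Drosophila virilis. They were taken by a single rule on the deposited annotation: a gene with at least 1 coding line, on arm 2L, 2R, 3L, 3R or X, whose span from start to end is 100 kb or more. The rule kept 99 of 13297 coding genes on these 5 arms. The Hox gene Antp (120 kb) met the length but was left out of the set by the rule, Ubx spanned 92.8 kb, and 3 further coding genes of this length lie outside the 5 arms. No Hi-C value entered the choice.

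In situ Hi-C, a proximity ligation assay that records which loci lie close together in the nucleus, was performed on mixed-sex D. virilis embryos of stage 15 to 16 from the San Diego stock 15010-1051.0. The map is 1 merge of 2 replicates, and its boundary list holds 2095 boundaries on the 5 arms. With 1 map and no replicate lists, no test between conditions can be made, so shares are given with exact (Clopper-Pearson) 95% binomial intervals and densities with exact 95% Poisson intervals. These cover counting error only, and genes that neighbour each other are not independent. The list gives no number of contacts behind a boundary, so no precision from depth can be set beside single boundaries.

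Topologically associating domains (TADs) are chromosome segments with more contacts within than across their borders, and a boundary is the border between adjacent TADs. In Drosophila, boundaries are often found at the promoters of broadly active genes and carry insulator proteins. Long genes of flies owe most of their length to introns, many serve in the nervous system and in development, and smaller genes often lie inside their introns. A long gene is therefore a place to see whether a TAD border falls within a transcription unit or beside it. Below, a TAD runs from the centre of 1 boundary to the centre of the next, and an inner boundary is one whose centre lies between the ends of a gene and over 1000 bp from both. Positions are on the authors' Hi-C assembly of D. virilis, counted from 1.

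The 99 genes had a median span of 133 kb (quartiles 114 and 168 kb), against 2.20 kb over all coding genes (1.19 and 5.39 kb). Most were close to the lower limit: 61 spanned less than 150 kb, 14 over 200 kb and 4 at least 300 kb. Exons made up a median of 2.93% of the span, against 81.5% over all coding genes, so these are largely intronic stretches. The longest intron alone took a median of 38.3% of the span and measured 57.1 kb at the median. A few stood apart. In GJ14863, GJ24706, GJ23332 and GJ21455 a single intron took 98.5%, 97.4%, 96.4% and 95.8% of the span. GJ17388, with 71 exons, and GJ11158, with 28, were 49.4% and 43.8% exonic. The genes had a median of 2 annotated start sites (quartiles 1 and 4), and 39 of them had 1.

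Only 1 of the 99 carries a symbol beyond a GJ number: fru, a transcription factor gene known from D. melanogaster for its part in male courtship. The others are named here by their GJ symbol with no role, since the annotation gives none. The genes nearest to the limit differed little in size. Just inside it were GJ10763 (100.1 kb, no inner boundary, TAD of 217 kb), GJ23332 (100.4 kb, 1 inner boundary, TAD of 112 kb) and GJ16423 (100.7 kb, no inner boundary, TAD of 333 kb). Just outside it were GJ20836 (99.59 kb), GJ17707 (98.93 kb) and GJ17631 (98.39 kb), each with no inner boundary, in TADs of 118, 418 and 199 kb.

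Most long genes were not crossed by a TAD border. An inner boundary was found in 32 of the 99 genes (32.3%, 95% interval 23.3 to 42.5%), against 401 of all 13297 coding genes (3.02%), most of which are too short to hold one. The share was 19.5% (53 of 272) in genes of 50 to 100 kb and 12.9% (94 of 729) in genes of 20 to 50 kb. The share was thus higher in the longer classes of genes. Of the long genes, 67 had no inner boundary, 22 had 1, 5 had 2, 4 had 3 and 1 had 5. Counting boundaries up to the very ends, 65 genes had none between them. Of these, 63 lay whole within 1 TAD, and GJ14370 and GJ14122 lay beyond the outermost boundaries of 3R, where no TAD is defined.

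Set against length, boundaries were sparse inside these genes. The inner stretches of the long genes, with overlaps counted once, held 48 boundaries in 14.6 Mb, or 3.29 per Mb (95% interval 2.43 to 4.36). Over the 5 arms, each taken between its outermost boundaries, the density was 13.7 per Mb (13.1 to 14.3). GJ14370 and GJ14122 lie beyond those limits and could hold no boundary, but are part of the 14.6 Mb. The sequence just outside the genes did not share this low density. In the 100 kb on either side of them, 229 boundaries lay in 17.3 Mb, which is 13.3 per Mb (11.6 to 15.1), and in the nearer 50 kb the density was 13 per Mb (10.7 to 15.6). The intervals of the inner stretch and of its flanks did not overlap. The low density was not particular to genes of this length: inner stretches held 3.71 per Mb in genes of 50 to 100 kb and 4.78 per Mb in genes of 20 to 50 kb. Stretches of 20 kb or more with no gene within 1000 bp had a similar density of 3.57 per Mb (2.94 to 4.30).

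**Figure D1:**
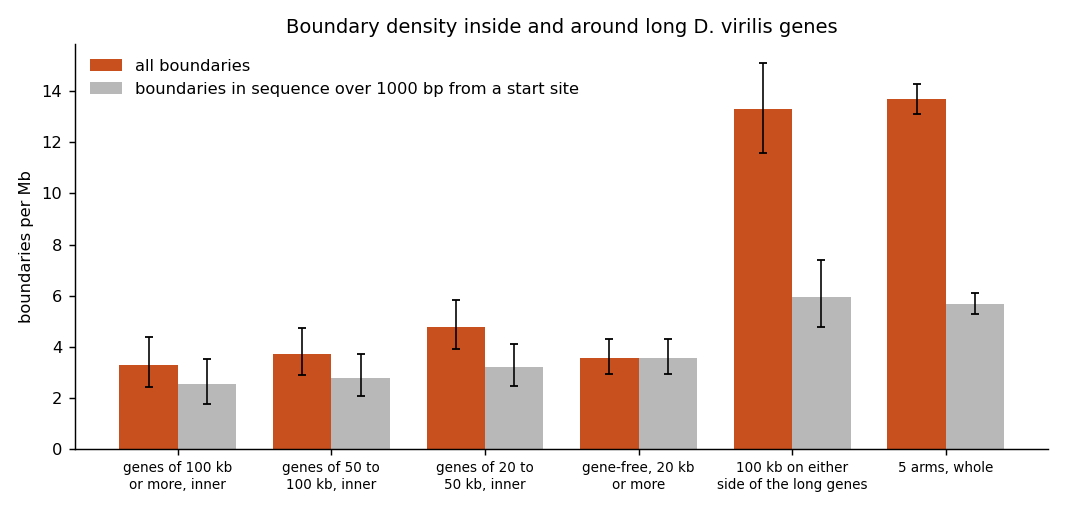
Boundaries per Mb (vertical axis) in 6 kinds of D. virilis sequence, from the inner stretches of the 99 long genes at the left to the 5 arms between their outermost boundaries at the right, with exact 95% Poisson intervals as error bars. Orange bars count all boundaries and grey bars those in sequence over 1000 bp from any annotated start site: the long genes stand at 3.29 and 2.54 per Mb, the 100 kb beside them at 13.3 and 5.96 per Mb, and the arms at 13.7 and 5.66 per Mb.

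Start sites are also sparse inside long genes, and boundaries of this map lie near start sites. The inner stretches held 486 annotated start sites, or 33.3 per Mb, against 118 per Mb over the arms and 120 per Mb in the 100 kb beside the genes. Per 100 start sites there were 9.88 boundaries inside the long genes, 11.1 beside them and 11.6 over the arms. On this scale the inner stretches and the rest differed far less than per Mb, but the ratio also counts boundaries far from start sites. Boundaries within 1000 bp of a start site numbered 13 for the 486 start sites inside the long genes. Over the arms they numbered 1376 for 18075 start sites. Values also differed in sequence over 1000 bp from any start site. There the long genes held 35 boundaries in 13.8 Mb, or 2.54 per Mb (1.77 to 3.53). The flanks had 5.96 per Mb (4.76 to 7.38) and the arms 5.66 per Mb (5.26 to 6.09). How much of the low density goes with the small number of start sites was not tested. When only boundaries with a score at or below the median were used, the inner density was 0.891 per Mb, against 7.04 per Mb over the arms.

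**Figure D2:**
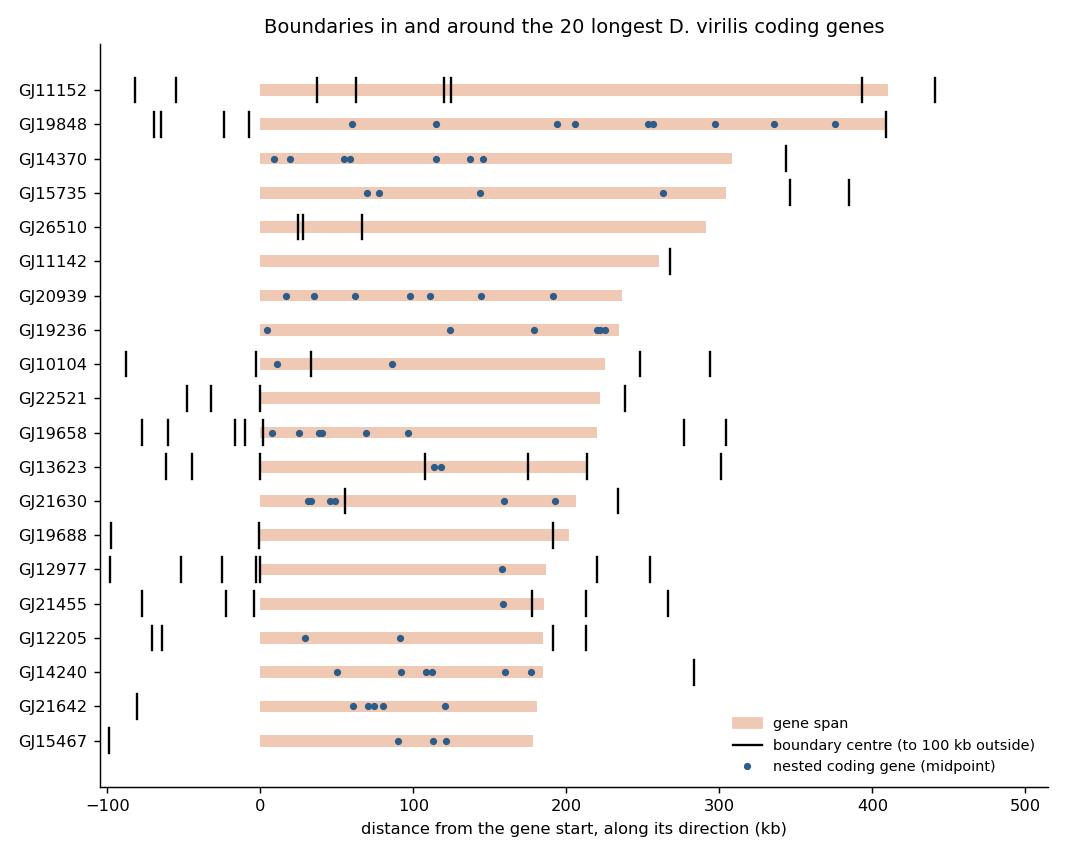
The 20 longest of the 99 D. virilis coding genes, longest at the top. Each is drawn as a bar from its start at 0 kb along its direction of transcription (horizontal axis in kb). Black ticks are boundary centres out to 100 kb beyond either end, and blue dots are the midpoints of nested coding genes: GJ11152 was crossed by 5 boundaries, while GJ19848, of nearly the same length, was crossed by none and held 9 nested genes.

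The longest genes showed both extremes. GJ11152 (FBgn0198413; 3R, 34560561 to 34970703, minus strand), the longest at 410 kb, had 1 annotated transcript, no nested gene and 5 inner boundaries, the most of any member. From its start, these boundaries parted the gene into stretches of 36.9, 25.7, 57.0, 4.87, 269 and 16.9 kb. The 269 kb stretch is a whole TAD with no other coding gene in it. All 5 boundaries lay in introns and over 1000 bp from any annotated start site, the nearest start being 36.9 kb away. GJ19848 (FBgn0206990; 2L, 25563164 to 25971357, minus strand), of 408 kb, had no boundary inside. It filled 98.0% of a TAD of 417 kb, with its start 7.51 kb and its end 0.83 kb from the boundaries of that TAD, and 9 coding genes lay within it. The 2 longest genes thus differed by 5 boundaries at nearly equal length.

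Among the next in length, GJ14370 (FBgn0201583; 3R, 80968 to 389152) of 308 kb began close to the end of its arm and lay outside the outermost boundary, which was 35.3 kb past its end. GJ15735 (FBgn0202923; X, 4017921 to 4322025) of 304 kb took 67.3% of a TAD of 452 kb. GJ26510 (FBgn0282779; X, 29948888 to 30240208) of 291 kb had 3 inner boundaries, all in the first 66.2 kb of the gene, and a remaining stretch of 225 kb without one. The middle one of the 3 lay 0.393 kb from an alternative start site of the gene, the only 1 of its 5 start sites within 1000 bp of a boundary. GJ11142 (FBgn0198403; 3R, 36153331 to 36414107) of 261 kb had its end 7.27 kb and its start 231 kb from the borders of a TAD of 499 kb. GJ20939 (236 kb) and GJ19236 (234 kb) lay within TADs of 609 and 1008 kb. GJ10104 (225 kb) had 1 inner boundary, 33.1 kb from its start, and GJ22521 (222 kb) none. Of these 10 longest genes, 7 thus had no inner boundary.

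The genes with 3 inner boundaries other than GJ26510 were shorter. GJ12399 (3L, 20889949 to 20996184; 106 kb) was divided into stretches of 38.7, 16.4, 14.8 and 36.3 kb, and 13 coding genes were nested in it, more than in any other member. Each of its 3 boundaries lay within 1000 bp of a start site, 2 of them at starts of the nested genes GJ12396 and GJ12967 and 1 at its own second start site, where the start of another gene lay nearer still. GJ14312 (3R, 948691 to 1075941; 127 kb) had boundaries 2.86, 27.0 and 74.1 kb from its start, and the middle one lay 0.210 kb from a start site 27.2 kb into the gene. GJ11158 (2L, 13865316 to 13970834; 106 kb) had boundaries 17.6, 59.6 and 93.3 kb from its start and none near a start site. In 2 of these 3 genes a boundary thus met a start site inside the gene, and in GJ11158 none did.

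The 49 inner boundaries counted gene by gene (48 distinct, since GJ17388 and GJ23332 overlap and share 1) lay mostly in introns: 45 of 49, with 4 in exons. Exons made up a median of 2.93% of the span of the 99 genes, so this count shows no preference for introns. By position, 19 fell in the first 25% of the gene, 11 in the next 25%, 9 in the next and 10 in the last. Of the 48 distinct boundaries, 13 (27.1%, 95% interval 15.3 to 41.8%) had an annotated start site within 1000 bp, against 1376 of all 2095 boundaries (65.7%, 63.6 to 67.7%). Part of this gap is built in, since an inner boundary is over 1000 bp from the outer start of its own gene by definition, while the share over all boundaries has no such limit. In 9 cases a start of the long gene itself lay within this distance, in 4 more only that of a nested gene, while 36 of the 49 had none. The 9 genes with a boundary at a start site of their own within the gene were GJ26510, GJ22727, GJ18020, GJ14312, GJ18446, GJ13667, GJ23136, GJ16158 and GJ12399.

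Each boundary carries a TAD-separation score given by the authors. A low score means that few contacts span the boundary. Inner boundaries scored high for this list: their median was 0.0881 (quartiles -0.0718 and 0.312, 48 boundaries), against -0.0535 (-0.150 and 0.0613) over all 2095. Of the 48, 27 lay in the highest 25% of all scores and 6 in the lowest 25%. The boundaries that border the TADs of the 63 uncrossed genes scored lower, with a median of -0.0757 (quartiles -0.162 and -0.0140, 109 boundaries). The boundary with the highest score on the 5 arms, 1.09, lay inside GJ16158, in an exon and 0.45 kb from one of that gene's start sites. The 5 inner boundaries with the lowest scores were near the end of GJ11152 (-0.286), 2.31 kb from the start of GJ23136 (-0.251), near the end of GJ21455 (-0.239), near the end of GJ19688 (-0.199) and in the middle part of GJ12399 (-0.158). Of these 5 low-scoring boundaries, 3 lay in the last 10 percent of a gene.

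**Figure D3:**
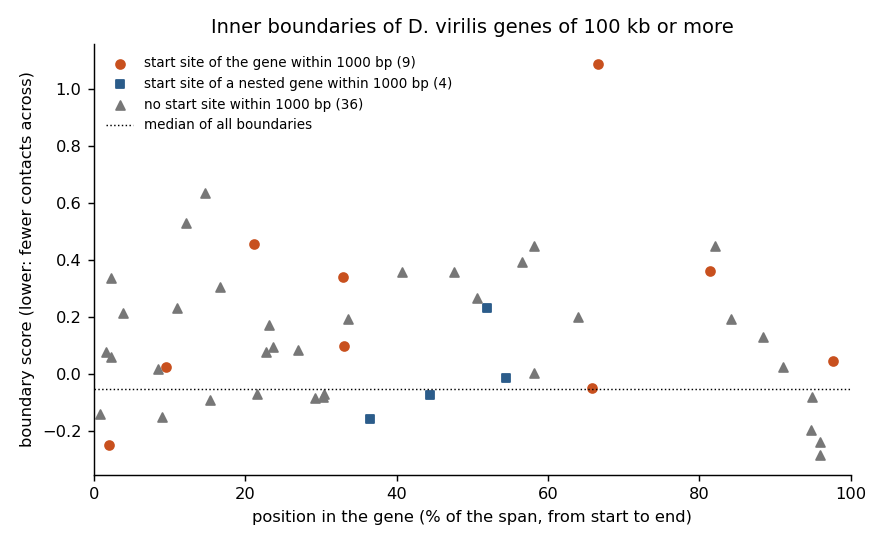
Position of each inner boundary along its gene (horizontal axis, percent of the span from start to end) and its score (vertical axis; lower means fewer contacts across), for the 49 inner boundaries of 32 long genes. Symbols show whether a start site of the gene (9), of a nested gene (4) or none (36) lies within 1000 bp; the dotted line marks the median of all boundaries, -0.0535, and most points stand above it.

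The ends of the long genes were compared with those of all coding genes. A boundary lay within 1000 bp of the start in 9 of 99 long genes (9.09%, 95% interval 4.24 to 16.6%), against 13.7% of all coding genes. Within 1000 bp of the end it was 5 of 99 (5.05%, 1.66 to 11.4%), against 5.56%. Both intervals include the share over all coding genes. The start share was 15.1% (41 of 272) in genes of 50 to 100 kb and 19.6% (143 of 729) in genes of 20 to 50 kb, which lies above the interval of the long genes. With a window of 5000 bp the long genes stood below all coding genes at both ends. A boundary then lay at the start of 22 of 99 long genes (22.2%, 14.5 to 31.7%), against 32.0% of all coding genes, and at the end of 12 of 99 (12.1%, 6.42 to 20.2%), against 28.5%. This wider window takes in sequence inside the long genes and, for many short genes, the whole gene and what lies past it. When any annotated start site of the gene was allowed, the count was 18 of 99 (18.2%, 11.1 to 27.2%), against 14.3% of all coding genes, of which most have 1 start site. A boundary therefore met an alternative start alone in 9 of the 18 genes.

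The boundaries at starts were close. They lay 0.013 kb from the start of GJ13623, 0.0755 kb from GJ22521, 0.133 kb from GJ12977, 0.181 kb from GJ17864 and 0.243 kb from GJ13744. For GJ22317, GJ12956, GJ10173 and GJ19688 the distances were 0.422, 0.484, 0.494 and 0.632 kb. At gene ends, the distances were 0.0435 kb in GJ16158, 0.0785 kb in GJ18862, 0.231 kb in GJ19291, 0.655 kb in GJ13623 and 0.83 kb in GJ19848. GJ13623 (2L, 8740654 to 8953679; 213 kb) was the only gene with a boundary at both ends, and 2 more lay inside it. Its 3 stretches, from the start, measured 108, 67.0 and 38.1 kb.

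Over all 99 genes the nearest boundary was far from either end. The median distance was 38.3 kb from the start (quartiles 6.18 and 107 kb), against 10.9 kb over all coding genes, and 35.3 kb from the end (10.2 and 92.3 kb), against 11.5 kb. Counted in 10 kb steps, the long genes had 24 boundaries in the first 10 kb before their starts and 10 in the first 10 kb inside. Past the ends there were 21 boundaries in the first 10 kb outside and 3 in the last 10 kb inside. The contrast between outside and inside was thus present at both ends. All coding genes had 30.6 and 25.2 boundaries per 100 genes in the same steps before and after the start, most of which reach beyond such short genes.

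**Figure D4:**
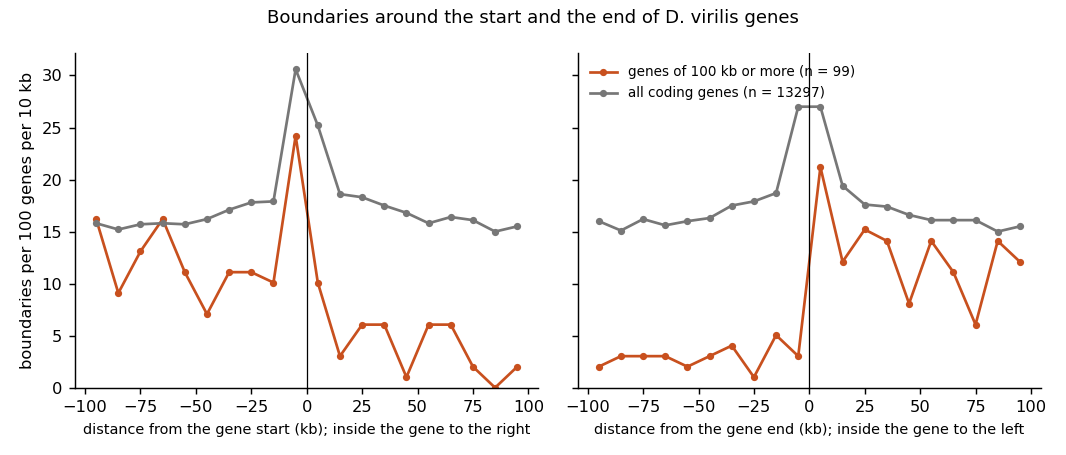
Boundaries per 100 genes in 10 kb steps (vertical axis) by distance from the gene start (left) and the gene end (right), for the 99 long genes (orange) and all 13297 coding genes (grey). For the long genes the count was 24.2 in the step just before the start and 10.1 just after it, and 21.2 in the step just past the end and 3.03 just before it.

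TADs that hold long genes were long. The TAD at the gene midpoint had a median length of 263 kb (quartiles 174 and 374 kb, 97 genes), against 69.1 kb (34.9 and 176 kb) over all coding genes and 39.7 kb over the 2090 TADs. A gene of 100 kb with no boundary inside cannot lie in a shorter TAD, so part of this difference is built in. Over the 63 genes with no boundary between their ends, the median TAD was 328 kb (227 and 417 kb). Coding genes under 100 kb whose TAD is 100 kb or longer had a median of 211 kb (147 and 335 kb). The limits still differ, since the TAD of an uncrossed long gene must be at least as long as that gene. Part of this gap is therefore built in as well. The 32 genes with an inner boundary had a median of 137 kb, the lowest being the TAD of 16.4 kb in the middle of GJ12399.

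**Figure D5:**
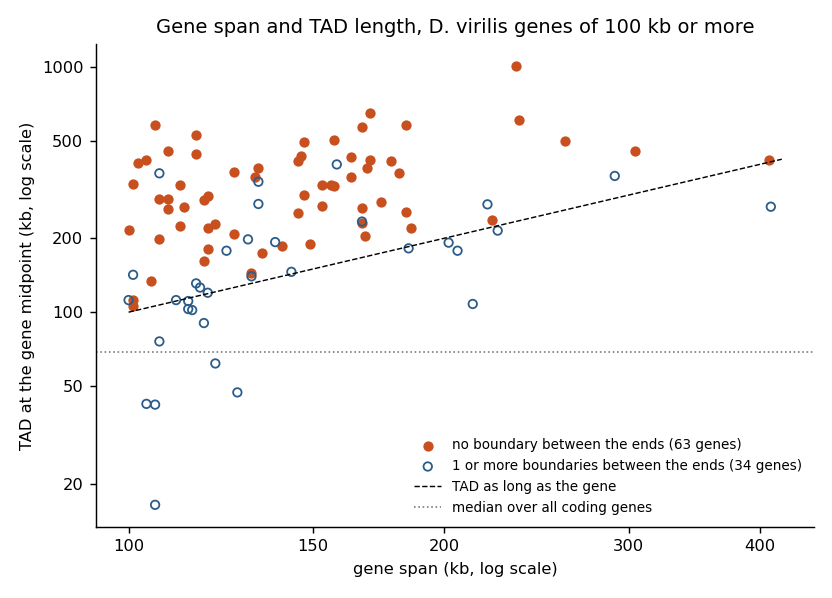
Gene span (horizontal axis, kb, log scale) and length of the TAD at the gene midpoint (vertical axis, kb, log scale) for the 97 long genes with a TAD there. Filled points are the 63 genes with no boundary between their ends, which must lie on or above the dashed line of equal length, and open points the 34 genes with at least 1; the dotted line is the median over all coding genes, 69.1 kb, and most points stand above it.

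Long TADs often held a long gene. A whole long gene lay in 18 of the 36 TADs of 400 kb or more (50%), in 9 of 41 of 300 to 400 kb (22%), in 21 of 105 of 200 to 300 kb (20%) and in 10 of 233 of 100 to 200 kb (4.29%). These shares are per TAD and not per Mb. A longer TAD has more room for a whole long gene, so part of the rise is built in. The 63 uncrossed genes fell into 58 TADs, of which 5 held 2 long genes each. GJ13567 and GJ14694 shared a TAD of 329 kb on 2L, and GJ22507 and GJ26815 one of 387 kb on 3R. GJ14240 and GJ14505 shared one of 580 kb on 3R. The other 2 pairs, GJ15735 with GJ26125 and GJ19848 with GJ17756, are genes of which the second lies inside the first.

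The fit between gene and TAD varied widely. Uncrossed genes covered a median of 46.2% of their TAD (quartiles 34.2 and 64.4%, range 18.3 to 98.0%). At least 80%, a limit chosen after the values were seen, was covered by 7 of them. GJ19848 covered 98.0%, GJ24706 94.7%, GJ22521 93.0%, GJ23029 91.1%, GJ13744 90.9%, GJ12977 84.6% and GJ14863 82.3%. The distance left to a TAD border was under 10 kb at both ends in GJ19848, GJ24706, GJ23029 and GJ13744, while in GJ12977 the end lay 33.8 kb from its border and in GJ14863 the start lay 20.6 kb and the end 15.5 kb from theirs. GJ22521 (3R, 37211696 to 37433400) was the only uncrossed gene that was alone in its TAD of 238 kb, with its start 0.0755 kb from 1 border and its end 16.7 kb from the other. At the other extreme, GJ14505 covered 18.3% of a TAD that held 42 coding genes.

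The 5 genes in the longest TADs were GJ19236 (1008 kb, X), GJ16871 (648 kb, X), GJ20939 (609 kb, 2R), GJ14240 and GJ14505 (580 kb, 3R). These TADs held many other genes: 44, 28, 36, 42 and 42 coding genes had their midpoint inside, GJ14240 and GJ14505 being in the same TAD. Over all 63 uncrossed genes, the TAD held a median of 12 coding genes, the long gene and its nested genes included. In TADs of 100 to 200 kb, those with a whole long gene had a median of 43.2 coding genes per Mb and those without one 66.7. In TADs of 200 to 300 kb the values were 34 with and 43.1 without a long gene, in those of 300 to 400 kb 61 and 48.8, and in those of 400 kb or more 42.4 and 43.5 per Mb. The direction of the difference thus changed between length classes. All these values lay below the 141 per Mb of TADs under 100 kb, which cannot hold a whole long gene.

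Nested genes were common. At least 1 other coding gene lay wholly within the span of 68 of the 99 long genes (68.7%, 95% interval 58.6 to 77.6%), against 6.89% of all coding genes. The share was 58.5% in genes of 50 to 100 kb and 33.9% in those of 20 to 50 kb. In all, 243 distinct coding genes were nested in long genes, with a median span of 1.51 kb. Of the 244 nestings, 231 lay within 1 intron, 160 on the strand opposite to the host and 84 on the same strand. Introns make up most of the span of each long gene. After GJ12399 with 13, the most nested coding genes were 9 each in GJ19848, GJ18297, GJ17086, GJ14067 and GJ10139.

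Boundaries were rare at nested genes. A boundary lay within 1000 bp of the start of 8 of the 243 nested genes (3.29%, 95% interval 1.43 to 6.38%), against 13.7% of all coding genes, and the interval does not reach that share. Their starts lay a median of 63.9 kb from the nearest boundary, against 10.9 kb over all coding genes. Nested genes share the TAD and the stretch of their host, so these values are not independent of those above.

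A name was given for 10 nested genes in 7 hosts, and each lay within 1 intron. Their roles are known from D. melanogaster. GJ14863 (X, 14499876 to 14667379, plus strand) held elav, which encodes a neuronal RNA-binding protein, on the opposite strand in the intron that makes up 98.5% of its span. The start of elav was 36.3 kb from a boundary and in the same TAD of 204 kb as the start of its host. GJ10139 (3R, 31412278 to 31526347, minus strand) held dsx, the transcription factor gene of sexual differentiation, also on the opposite strand. The 1 inner boundary of GJ10139 lay 50.6 kb from its start, at 3R from 31475272 to 31476142, and 0.031 kb from the start of the nested gene GJ11031. It lay 17.9 kb from the start of dsx, which together with the start of its host fell in a TAD of 63.6 kb.

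GJ17474 (2L, 20784653 to 20899029, plus strand) held the maltase genes Mal-B2 and Mal-B1 and the Polycomb group gene esc. Its 1 inner boundary lay 14.0 kb from its start (score 0.53), and all 3 nested genes lay beyond it, in a TAD of 103 kb that does not include the start of the host. Here host start and nested genes stood on different sides of a border. The other named genes shared the TAD of their host's start. They were sisA, an X-linked signal for sex determination, in GJ19527 (TAD of 263 kb), and the odorant-binding protein genes Obp56h in GJ20939 (609 kb), Obp83g and Obp83cd in GJ14240 (580 kb) and Obp85a in GJ23240 (356 kb).

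The gene fru (FBgn0043390; 3R, 27912544 to 28031437, plus strand; 119 kb) had no boundary inside and lay in a TAD of 221 kb, of which it took 53.8%. Its 4 annotated start sites, at 0, 8.10, 46.0 and 92.1 kb from the gene start, all lay in this TAD, at least 41.2 kb from a boundary. Its end was 14.4 kb from the nearest boundary, and 3 unnamed coding genes were nested in it, all on the other strand. In D. melanogaster, fru spans 131 kb (3R, 18414273 to 18545586 in BDGP6, minus strand) and its midpoint lay in a TAD of 206 kb. There, 1 inner boundary was found, 92.1 kb from the gene start and 3.23 kb from the nearest of its start sites, and another boundary lay 0.973 kb past its end. The TADs were similar in length in both species, with no boundary inside the gene in the D. virilis list and 1 in that of D. melanogaster. The list and annotation of each species were made separately, and the difference was not tested.

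Long genes were described in the same way in D. melanogaster, with BDGP6 gene models and the boundary list of stage 15 to 16 embryos. Of the 99 long genes of D. virilis, 32.3% held an inner boundary, and of the 82 of D. melanogaster 51.2% (95% interval 39.9 to 62.4%) did. Antp and Ubx are in neither set. Over all coding genes the shares were 3.02% in D. virilis and 3.12% in D. melanogaster. The density in their inner stretches was 3.29 per Mb in D. virilis and 4.95 per Mb (3.86 to 6.25) in D. melanogaster, against 13.7 and 16.9 per Mb over the arms. A low inner density was thus present in both maps. The median TAD at the midpoint was 263 kb in D. virilis and 191 kb in D. melanogaster. Nested coding genes were found in 68.7% of the long genes of D. virilis and 65.9% of those of D. melanogaster, against 6.89% and 6.8% of all coding genes. The list and annotation of each species were made separately. Overlapping genes were each counted in the shares, as with rg and CG15465 of D. melanogaster, which have the same span. Differences between the species were not tested. The 5 longest D. melanogaster genes were Myo81F (1966 kb, 2 inner boundaries), Pzl (709 kb, 3), lovit (434 kb, 2), CG17684 (396 kb, none) and kirre (394 kb, 2), a gene for a cell adhesion protein of muscle fusion that held 21 nested coding genes. Myo81F and CG17684 lay in TADs of 1205 and 1721 kb. Such very long genes weigh heavily in the density of 4.95 per Mb, and their part in it was not tested. Inner stretches of D. melanogaster genes of 50 to 100 kb held 5.09 per Mb (4 to 6.38).

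Symbols could not show which pathways the D. virilis genes serve. Of 86 listed genes of cell surface and neuronal wiring, 4 matched a D. virilis symbol and none of these was 100 kb long, whereas 84 matched in D. melanogaster and 10 of them were, 5 with an inner boundary. Over all 82 long genes of D. melanogaster, 42 (51.2%) held one, and the counts of each list are to be read beside that share. Of 99 listed transcription factor genes, 13 matched in D. virilis. Among these, fru alone was in the set, since Antp (120 kb) was left out by the rule. In D. melanogaster 93 matched and 5 were among its 82 long genes, 3 of them with an inner boundary. For RNA-binding proteins, 2 of 26 matched in D. virilis and 23 in D. melanogaster, with 0 and 7 of this length, 4 of the 7 with an inner boundary. For signalling and the cytoskeleton, 6 of 75 matched in D. virilis and 69 in D. melanogaster, with 0 and 6 of this length, 3 of the 6 with an inner boundary. For ion channels and receptors, 1 of 62 matched in D. virilis and 61 in D. melanogaster, with 0 and 1, the potassium channel gene Sh, which had none.

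The long genes were spread unevenly over the arms. There were 25 on 2L, 8 on 2R, 18 on 3L, 25 on 3R and 23 on X, which is 9.90, 2.93, 6.91, 7.63 and 10.7 per 1000 coding genes of each arm. An inner boundary was found in 11 of 25 genes on 2L, 4 of 8 on 2R, 7 of 18 on 3L, 6 of 25 on 3R and 4 of 23 on X. The inner density ran from 1.85 per Mb (95% interval 0.681 to 4.04) on X to 4.67 per Mb (2.33 to 8.36) on 3L. On each arm it was below that of the whole arm, and the 5 intervals overlapped each other. The median TAD of the long genes was 333 kb on X, 280 kb on 2L, 265 kb on 3R, 204 kb on 3L and 186 kb on 2R, against 57.3 to 87.7 kb over all coding genes of an arm. The embryos were of mixed sex, so X was present in fewer copies than the other arms, and its part in these values was not tested.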

How the data were processed

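The authors aligned the reads with BWA, counted contacts between DpnII fragments with HiCExplorer, merged 2 replicates and called boundaries on the corrected matrix. The deposited list gives each boundary's interval and a score from HiCExplorer's TAD-separation measure, used here only within the D. virilis list. The deposited annotation, a FlyBase annotation moved by the authors to their Hi-C assembly, and the chain file of scaffold placements hold coordinates. In the chain file, pieces of each arm are 5000 bp apart, and all 99 long genes lay within 1 piece. The TADs of 11 of the 63 uncrossed genes spanned a gap between pieces. Many repetitive reads were filtered out by the authors, so boundaries can be missed in repeated sequence.

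The members, lists and comparisons were chosen with earlier results of these data known. A start or end was that of the gene line, and start sites were those of all annotated transcripts. D. melanogaster genes were those of Ensembl release 115 (BDGP6); 73.0 to 79.0% of the D. melanogaster boundaries of each arm lay within 1000 bp of a start site of that build. Genes named were the 10 longest, the 5 with the most inner boundaries, nested genes, TAD length or length without a boundary, those with the 5 lowest-scoring inner boundaries, the 3 on either side of 100 kb, those with a name, and genes at a boundary. Scripts ran in Python 3.11.15 with SciPy 1.17.1, NumPy 2.4.6 and, for figures, matplotlib 3.10.9. In 5 of 5 simulated sets, the counts of genes with an inner boundary, a boundary at the start or end, or a nested gene equalled a separate count. The inner density and the TAD lengths did so too. Start sites near inner boundaries and scores were not checked in this way.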

Additional observations from a re-analysis of the deposited data

How the results depend on the processing

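Each of 8 results was recomputed under alternatives, 92 values in all, of which 81 stayed within the 95% interval of the value reported. No long gene holds a joint between scaffold pieces, so leaving out such genes repeated the value of each of the 8 results. These values are among the 81 and could not have moved. The TADs of 11 of the 63 uncrossed genes do hold a joint, so their lengths rest on the placement of pieces. Leaving out those genes was not tried. The other alternatives also share most of their genes or boundaries with the main setting, so the 92 values are not independent checks. With a window of 5000 bp, a boundary lay at the start of 22.2% of the long genes (32.0% of all coding genes) and at the end of 12.1% (28.5%), and with any annotated start site it was 18.2%. With nested genes of any class, 77.8% of the long genes held one. With boundaries at or below the median score only, 10.1% of the long genes had an inner boundary, the inner density was 0.891 per Mb (7.04 over the arms), 1.01% had a boundary at the end and the median TAD was 405 kb (196 kb over all coding genes). For the 77.8%, 10.1% and 1.01%, the share over all coding genes under the same setting was not computed. A shorter boundary list lowers such shares for any genes, so these values are not particular to long genes by themselves. For genes of 150 kb or more the inner density was 2.33 per Mb, the median TAD 329 kb and the share of inner boundaries near a start site 11.1%; the cause was not tested. Leaving out each arm in turn gave 28.4 to 36.8% of genes with an inner boundary, 3.03 to 3.70 inner boundaries per Mb and a median TAD of 232 to 271 kb.

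There is 1 merged map, so nothing here measures the spread between embryos or libraries. A boundary can be missed where contacts are few or sequence is repeated, and the contacts inside each gene are not known here. Whether long introns have fewer usable reads was not tested. A span rests on the gene model: a missing start exon shortens it, and a wrongly joined exon lengthens it. Genes that overlap, neighbour or nest in each other share boundaries and TADs, so the intervals, which treat genes as independent, are too narrow.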

Other observations

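Splitting the 99 long genes by their own structure gave shares whose intervals overlapped. An inner boundary was found in 8 of 16 genes with 5 or more start sites (50%, exact 95% interval 24.7 to 75.3%), in 15 of 44 with 2 to 4 (34.1%, 20.5 to 49.9%) and in 9 of 39 with 1 (23.1%, 11.1 to 39.3%). It was found in 24 of 68 genes with a nested coding gene (35.3%, 24.1 to 47.8%) and in 8 of 31 without one (25.8%, 11.9 to 44.6%). Genes whose longest intron took over 50% of the span had one in 6 of 29 cases (20.7%, 7.99 to 39.7%), and the others in 26 of 70 (37.1%, 25.9 to 49.5%). Genes of 150 kb or more, which offer more room, had one in 10 of 38 cases (26.3%, 13.4 to 43.1%), and those of 100 to 150 kb in 22 of 61 (36.1%, 24.2 to 49.4%). Within the set, the longer genes were thus not the more often crossed ones. The gene with the most start sites, GJ12205 (3L, 17630272 to 17814746), had 12 of them, no inner boundary and a TAD of 256 kb, while GJ22727 (3R, 7022822 to 7180450), with 10, was crossed once, 0.465 kb from one of its start sites.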
